A study of Mus musculus with 2 samples.

Results

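The receptors for serotonin, for noradrenaline and adrenaline, and for acetylcholine were examined in mouse forebrain at embryonic day 15.5, when cortical neurons are still being born and few synapses have matured. Members were all measured genes whose symbol belongs to the serotonin (Htr), adrenergic (Adra and Adrb), muscarinic (Chrm) or nicotinic (Chrn) receptor families, which gave 45 of 43346 mouse genes: 14 serotonin, 9 adrenergic, 5 muscarinic and 17 nicotinic. Of these, 44 are annotated as protein-coding, and 1, Chrna1os, is an antisense RNA that the naming rule takes in with the nicotinic genes. Total RNA longer than 200 nucleotides was sequenced from healthy embryos of strain B6NCrl, males and females pooled. There was 1 group with 2 libraries, from 78 embryos (replicate 1) and 62 embryos (replicate 2), each made from 10 ng of RNA with spike-in transcripts. There was no second tissue, age or treatment, and whole forebrain mixes many cell types, so fewer cells of a type and less RNA per cell cannot be told apart.

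The libraries held 38720511 and 35103430 expected counts, and the members 7007 and 6011 of them. The label of the tissue was in keeping with its markers: all 6 genes of young neurons and all 6 of radial glia exceeded 10 TPM in both libraries, while none of the 5 raphe and hindbrain markers reached 1 TPM in both. TPM gives the share of a library's transcripts that a gene holds after correction for length, and every level is on this scale unless reads or CPM (reads scaled to the library total, with no length correction) are named. Levels are given for replicate 1 and then replicate 2, or as mean ± SD (n = 2). A two-sided exact sign-flip test over 2 libraries cannot give a p below 0.5, so each difference is described beside the SD over libraries and carries no p. Binomial intervals and the limits for 0 reads reflect counting error alone.

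These transmitters act through receptors of unlike design. Nicotinic receptors and the serotonin receptor built from Htr3a are ion channels of several subunits that open when the transmitter binds. All other receptors among the members are single proteins that signal through G proteins. The Htr1 and Htr5 receptors, the alpha-2 adrenergic receptors, Chrm2 and Chrm4 signal through inhibitory Gi/o. The Htr2 and alpha-1 adrenergic receptors, Chrm1, Chrm3 and Chrm5 do so through Gq/11. Htr4, Htr6, Htr7 and the beta adrenergic receptors act through stimulatory Gs. The neurons that make serotonin and noradrenaline lie in the hindbrain and send axons forward, while cholinergic neurons also arise within the ventral forebrain.

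By mean level the highest single genes, Chrnb2, Chrna7, Chrna4, Chrm1 and Chrna3, were acetylcholine receptors. In replicate 1, however, Htr3a (4.57 TPM) and Htr2c (4.44 TPM) stood above Chrm1 (4.18 TPM) and Chrna3 (3.98 TPM). The nicotinic genes as a family had the lowest median of the 4 families, 0.200 TPM, with 12 of 17 below 1 TPM in both libraries. In all, 14 of the 45 members reached 1 TPM in both libraries: 5 of 14 serotonin, 1 of 9 adrenergic, 4 of 5 muscarinic and 4 of 17 nicotinic genes. Among all mouse genes 34.4% reached that level in both libraries, and among protein-coding genes 60.6%, against 31.8% of the 44 protein-coding members. The median member level was 0.775 TPM, against 4.75 TPM over protein-coding genes and 0.085 TPM over all mouse genes. A further 6 members passed 1 TPM in 1 library and 25 in neither. Of the 44 protein-coding members 4 had no read in either library, as had 19.3% of all protein-coding genes. Only Chrnb2 exceeded 10 TPM in both libraries, a level reached by 40.9% of protein-coding genes. The nicotinic genes held 56.8 and 59.7% of the members' summed TPM in the libraries, the serotonin receptors 22.1 and 19.4%, the muscarinic receptors 12.1 and 11.5%, and the adrenergic receptors 9.06 and 9.29%.

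**Figure D1:**
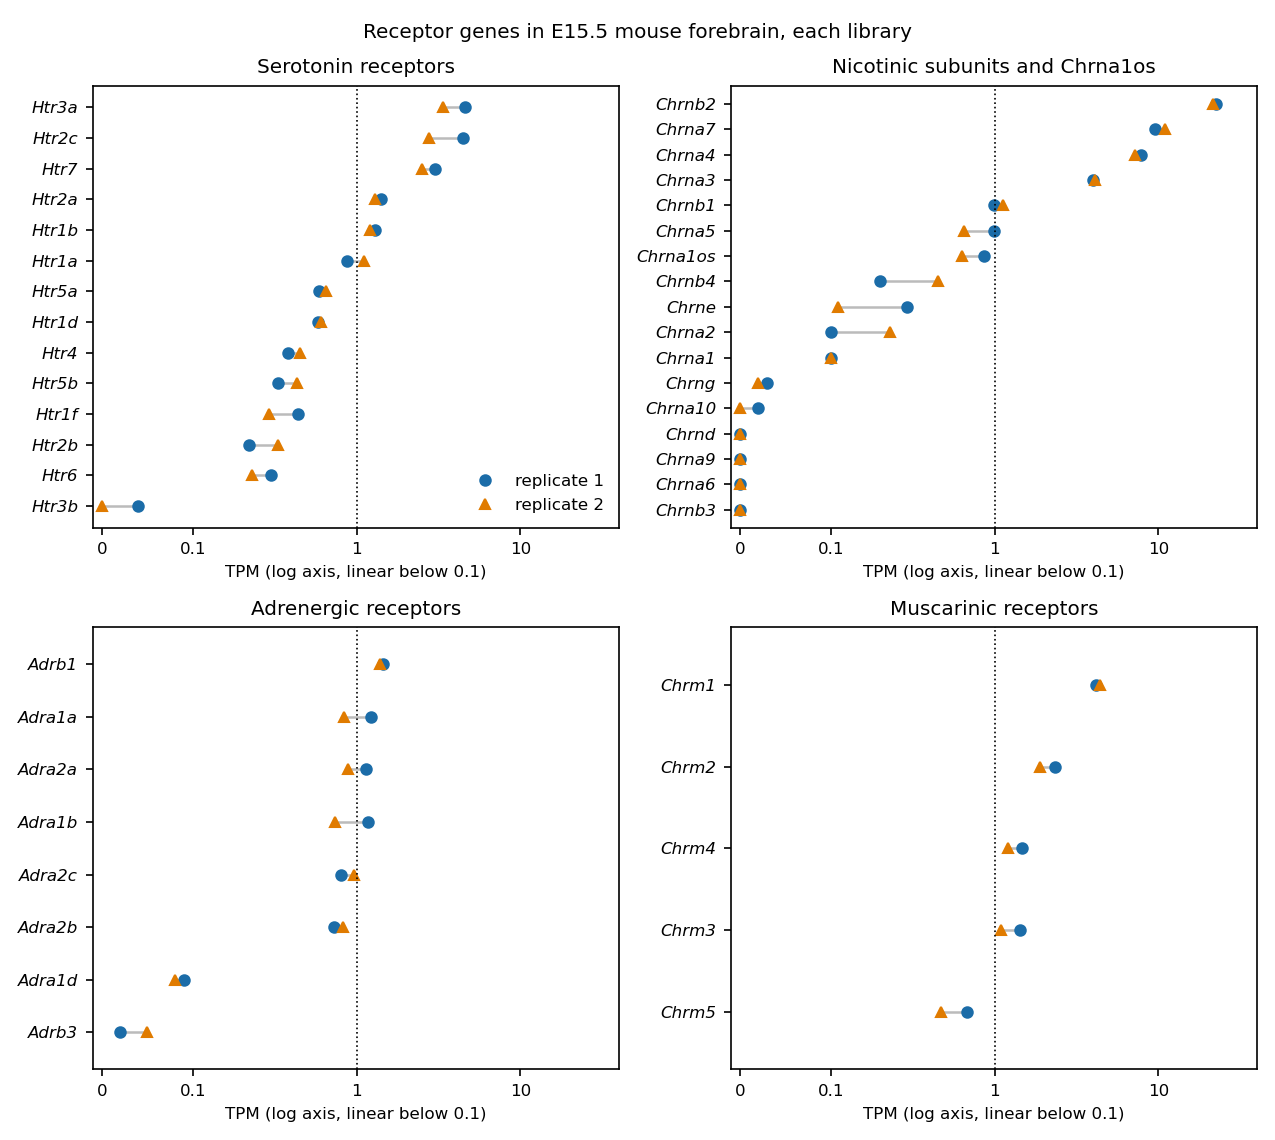
TPM of 44 of the 45 members in both libraries (circles, replicate 1; triangles, replicate 2), by receptor family, on a log axis that is linear below 0.1 TPM; the dotted line marks 1 TPM. Chrnb2 lies near 22 TPM, and most adrenergic receptors lie close to the line at 1 TPM.

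The start regions of the members differed in their content of CG dinucleotides, the base pair step that is dense in the promoters of many broadly active genes. The 300 bases from 250 before to 50 after the start site were available from RefSeq for 33 members (GRCm38.p6). The 5 sequences printed here were picked after their counts and levels were seen, as the start region of the highest member (Chrnb2), 2 CG-rich ones of members above 1 TPM (Chrna7 and Htr7), and a CG-poor one each from a member above 1 TPM (Htr2c) and a member at the bottom of the range (Chrng). They are written 5′ to 3′ on the gene's strand, with every CG in capitals.
Chrnb2, chr3:89764583-89764882, minus strand: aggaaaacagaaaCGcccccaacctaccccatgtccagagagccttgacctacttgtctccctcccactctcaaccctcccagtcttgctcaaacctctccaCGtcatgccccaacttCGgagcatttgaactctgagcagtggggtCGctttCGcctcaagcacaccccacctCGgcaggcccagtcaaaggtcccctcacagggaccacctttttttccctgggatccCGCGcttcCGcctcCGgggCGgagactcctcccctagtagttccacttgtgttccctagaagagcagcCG
Chrna7, chr7:63212477-63212776, minus strand: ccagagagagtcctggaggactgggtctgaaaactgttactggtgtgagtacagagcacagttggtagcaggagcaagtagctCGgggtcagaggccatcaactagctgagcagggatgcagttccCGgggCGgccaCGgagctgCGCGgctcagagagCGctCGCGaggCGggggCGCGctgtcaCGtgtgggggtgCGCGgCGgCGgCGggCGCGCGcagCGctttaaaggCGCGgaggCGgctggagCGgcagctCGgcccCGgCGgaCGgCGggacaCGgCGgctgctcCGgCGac
Htr7, chr19:36057311-36057610, minus strand: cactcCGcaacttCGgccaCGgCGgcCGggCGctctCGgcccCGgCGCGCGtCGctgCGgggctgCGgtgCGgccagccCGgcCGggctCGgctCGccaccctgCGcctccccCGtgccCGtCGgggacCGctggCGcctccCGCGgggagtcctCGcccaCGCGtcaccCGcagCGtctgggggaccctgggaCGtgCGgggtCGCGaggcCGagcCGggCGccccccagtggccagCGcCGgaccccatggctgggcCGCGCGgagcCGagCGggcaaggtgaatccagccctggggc
Htr2c, chrX:146962263-146962562, plus strand: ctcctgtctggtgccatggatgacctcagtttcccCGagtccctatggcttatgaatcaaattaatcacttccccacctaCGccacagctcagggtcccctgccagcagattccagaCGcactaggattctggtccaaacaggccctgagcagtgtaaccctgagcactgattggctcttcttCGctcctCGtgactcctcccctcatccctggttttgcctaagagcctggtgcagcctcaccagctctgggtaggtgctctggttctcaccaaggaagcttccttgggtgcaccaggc
Chrng, chr1:87205561-87205860, plus strand: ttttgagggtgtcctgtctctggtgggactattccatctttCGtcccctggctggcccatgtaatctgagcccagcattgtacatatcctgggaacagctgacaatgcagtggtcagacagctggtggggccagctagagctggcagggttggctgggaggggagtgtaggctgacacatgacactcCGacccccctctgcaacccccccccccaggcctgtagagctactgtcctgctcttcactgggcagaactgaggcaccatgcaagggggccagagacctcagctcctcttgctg
In this order they hold 12, 35, 46, 5 and 2 CG dinucleotides. The median was 17 (range 5 to 46) for the 12 such members at 1 TPM in both libraries and 7 (range 1 to 29) for the 17 below 1 TPM in both. The medians were 21 over 10175 protein-coding genes at 1 TPM in both libraries and 3 over the other 6142. The groups are not fully alike, since the 6142 include genes at 1 TPM in 1 library and the 17 include the antisense RNA Chrna1os. The 4 members at 1 TPM in 1 library, which are not among the 17, had a median of 16.25, and 3 of them held at least 15. At least 15 CG dinucleotides were present in 7 of the 12 members (58.3%) and 4 of the 17 (23.5%), against 72.3 and 11.8% of these protein-coding genes. Htr2c, Htr2a, Chrm3 and Htr1b reached 1 TPM with 5, 6, 11 and 11, and Adra2b held 29 at 0.775 TPM. Genes with 2 listed starts entered with the mean of both.

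**Figure D2:**
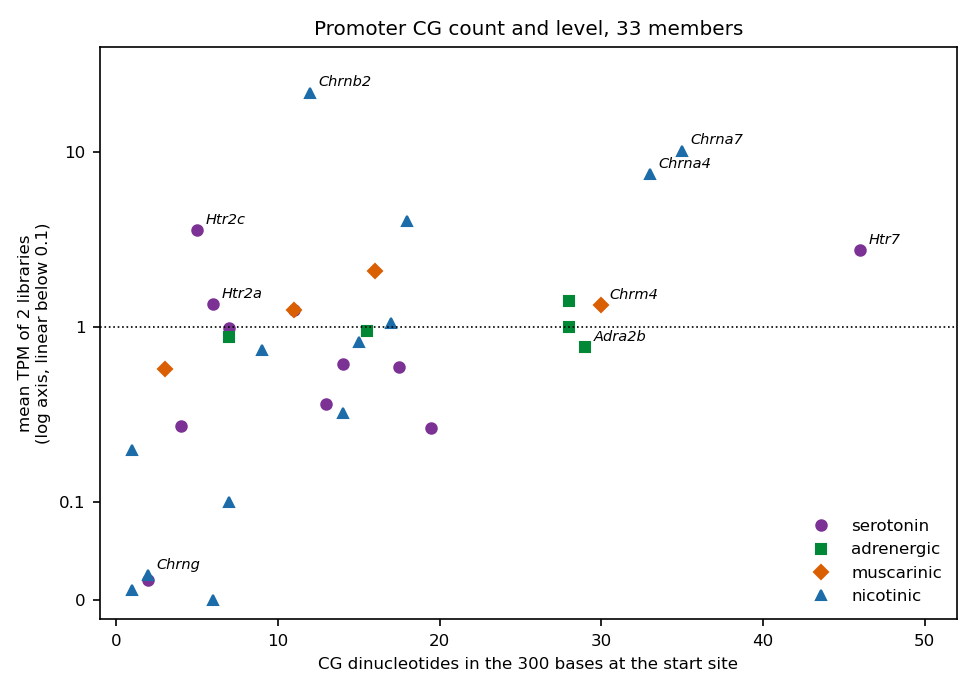
Number of CG dinucleotides in the 300 bases at the start site (x axis) against the mean TPM of the libraries (y axis, log, linear below 0.1 TPM) for 33 members, coloured by family. Chrna7, Chrna4 and Htr7 combine 33 or more CG dinucleotides with over 2 TPM, while Chrnb2, with 12, stands highest.

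Among nicotinic subunits, 4 that form receptors in neurons accounted for nearly all of the signal. Chrnb2, the beta subunit that pairs with Chrna4 in the most common nicotinic receptor of the adult brain (ENSMUSG00000027950.3; chromosome 3, 89746195 to 89764632, minus strand, mm10, GENCODE M21 gene span), was at 22.45 and 21.48 TPM, from 2777 and 2441 reads. Chrna7, which forms calcium-permeable receptors on its own (ENSMUSG00000030525.7; chromosome 7, 63098692 to 63212569, minus strand), was at 9.59 and 10.9 TPM (447 and 467 reads), and Chrna4 (ENSMUSG00000027577.10; chromosome 2, 181018380 to 181043546, minus strand) at 7.86 and 7.17 TPM (669 and 465 reads). Chrna3, the main alpha subunit of autonomic ganglia and of the habenula, was at 3.98 and 4.08 TPM (282 and 265 reads). The values of these 4 genes did not overlap between any 2 of them, so that their order was the same in both libraries. Chrnb2 alone held 47.3 and 45.8% of the nicotinic sum.

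The remaining neuronal subunits were low or not detected. Chrna5, an accessory subunit, was at 0.990 and 0.650 TPM, Chrnb4, the usual partner of Chrna3 in ganglia, at 0.200 and 0.450 TPM, and Chrna2 at 0.10 and 0.23 TPM. Chrna6 and Chrnb3, subunits of receptors on dopamine neurons and retinal axons, had 0 reads in both libraries, which at 3 reads allows up to 0.0457 and 0.0497 TPM for Chrna6 and 0.0287 and 0.0312 TPM for Chrnb3. Chrnb2 thus exceeded Chrnb4 by a log2 ratio of 5.70 ± 0.66 (51.9-fold; 4.12 with a pseudocount of 1 TPM and 6.51 in CPM), while Chrna3 stood below Chrna4 by -0.88 ± 0.12. The log2 ratio of Chrna4 over Chrna7 was -0.44 ± 0.22, and it turned to 0.30 in CPM, where the longer Chrna4 gains.

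Subunits of the muscle receptor and of hair cells were near the floor except for Chrnb1. Chrnb1, the beta subunit of the muscle receptor, was at 0.990 and 1.12 TPM (44 and 39 reads), against 0.10 TPM in both libraries for the muscle alpha subunit Chrna1. The adult epsilon subunit Chrne rested on 4 reads and 1 read and the fetal gamma subunit Chrng on 2 and 1. The delta subunit Chrnd had 0 reads in both libraries (up to 0.0629 and 0.0684 TPM). The median log2 level of the 9 neuronal subunits exceeded that of the 5 muscle subunits by 2.20 ± 0.38, on the log2(TPM + 0.1) scale, though Chrnb1 stood above 5 of the 9 neuronal ones. This difference ranged from 0.73 with a pseudocount of 1 TPM to 3.11 in CPM. Skeletal muscle markers were low: 2 of 11 reached 1 TPM in both libraries, Acta1 (5.83 and 3.17 TPM) and Actn2 (2.17 and 1.94 TPM), the list summed to 11.1 and 6.65 TPM, and the defining regulator Myod1 had 3 and 0 reads; their part in the Chrnb1 level was not tested. Of the hair cell subunits, Chrna10 had 1 and 0 reads, and Chrna9 had 0 in both (up to 0.207 and 0.225 TPM). The upper bounds of TPM deposited by the authors were higher than these limits for Chrnd (0.32 and 0.35 TPM) and Chrna9 (1.26 and 1.38 TPM).

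Levels of neighbouring subunit genes differed where any of them was well detected. On chromosome 9 the genes Chrna5 (54980880 to 55007779, plus strand), Chrna3 (55010111 to 55026562, minus strand) and Chrnb4 (55028154 to 55048779, minus strand) lie 2331 and 1591 bases apart, at mean levels of 0.820, 4.03 and 0.325 TPM. Also on chromosome 9, Htr3a and Htr3b lie 23908 bases apart. Chrnb3 and Chrna6 on chromosome 8, 3481 bases apart, were both without reads, and Chrnd and Chrng on chromosome 1, 4586 bases apart, held 0 and 3 reads in all. Chrna1os, on the strand opposite Chrna1 and 4511 bases from it, was at 0.860 and 0.630 TPM from 9 and 6 reads.

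Muscarinic receptors were the family with the largest share of members at 1 TPM in both libraries. This ranking did not hold at 2 TPM, where 1 of 5 muscarinic, 4 of 17 nicotinic and 3 of 14 serotonin genes passed. Chrm1, a Gq/11-coupled receptor of forebrain neurons (ENSMUSG00000032773.5; chromosome 19, 8663789 to 8683587, plus strand), was at 4.18 and 4.40 TPM (466 and 454.5 reads). The Gi/o-coupled Chrm2 and Chrm4, known as autoreceptors and as modulators of striatal output, were at 2.33 and 1.89 TPM and at 1.47 and 1.21 TPM. Chrm3 was at 1.42 and 1.10 TPM, and Chrm5, a receptor of midbrain dopamine neurons, at 0.680 and 0.470 TPM. Chrm3 stood below Chrm1 by a log2 ratio of -1.69 ± 0.29 and Chrm4 below Chrm2 by -0.62 ± 0.02. Both ratios exceeded their SD over libraries, which is not a measure of counting error. Their size depends on the scale: Chrm3 over Chrm1 was -2.64 in CPM and -2.49 over protein-coding transcripts, and Chrm4 over Chrm2 was -2.46 in CPM. Chrm4 rested on 46 and 35 reads and Chrm3 on 84 and 59. The authors' intervals of the TPM estimate reached below 1 TPM in replicate 2 for both (to 0.837 and 0.699 TPM).

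Serotonin receptors were led by Htr3a, Htr2c and Htr7, whose coupling differs. Htr3a, the subunit of the serotonin-gated channel and a marker of interneurons from the caudal ganglionic eminence (ENSMUSG00000032269.7; chromosome 9, 48899213 to 48911099, minus strand), was at 4.57 and 3.38 TPM (212 and 144 reads). Its partner subunit Htr3b had 2 and 0 reads. Of the other genes listed for that eminence, Nr2f2 was at 57.6 and 47.0 TPM, Sp8 at 12.5 and 12.1 TPM and Prox1 at 8.25 and 10.6 TPM, with Vip at 0 reads (up to 0.0898 and 0.0977 TPM). Htr7, a Gs-coupled receptor, was at 3.01 and 2.51 TPM (206 and 159 reads), and exceeded the Gs-coupled Htr6, at 0.300 and 0.230 TPM from 16 and 11 reads, by a log2 ratio of 2.97 ± 0.02 (7.84-fold; 1.57 with a pseudocount of 1 TPM). The SD of 0.02 leaves out the counting error of the few Htr6 reads. Htr4, the remaining Gs-coupled member, was at 0.380 and 0.450 TPM.

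Htr2c, the Gq/11-coupled receptor that is abundant in choroid plexus epithelium and also present in neurons (ENSMUSG00000041380.9; chromosome X, 146962513 to 147197277, plus strand), was at 4.44 and 2.78 TPM (291 and 205 reads). In CPM the ratio of replicate 1 over replicate 2 was 1.29 (exact binomial 95% interval 1.08 to 1.55). Of the choroid plexus markers, 6 of 7 reached 1 TPM in both libraries, and the list summed to 838 and 373 TPM, a ratio of 2.25; Ttr was at 761 and 331 TPM and Kl lowest at 0.260 and 0.230 TPM. The higher library was the same for Htr2c and for the choroid plexus list, and the part of choroid plexus RNA in the Htr2c level was not tested. Htr2a, the cortical Gq/11-coupled receptor, was at 1.41 and 1.30 TPM (95 and 80 reads), and the log2 ratio of Htr2c over Htr2a was 1.35 ± 0.39. Over protein-coding transcripts alone that ratio was 0.45. Htr2b was at 0.220 and 0.330 TPM from 10 and 4.29 reads, with an estimated mean transcript length of 2083 and 704 bases, so that its TPM and its reads run opposite ways between the libraries.

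Of the Gi/o-coupled serotonin receptors, Htr1b, which is found on axon terminals, was at 1.3 and 1.2 TPM and Htr1a, found on cell bodies and dendrites, at 0.870 and 1.11 TPM. The log2 ratio of Htr1b over Htr1a was 0.31 ± 0.30, about as large as the spread between the libraries. Htr5a (0.590 and 0.650 TPM), Htr1d (0.580 and 0.610 TPM), Htr1f (0.440 and 0.290 TPM) and Htr5b (0.330 and 0.430 TPM) were lower.

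Of the 9 adrenergic receptors 7 lay in a band around 1 TPM, and none was at 2 TPM. Adrb1, a beta receptor of cortical neurons (ENSMUSG00000035283.4; chromosome 19, 56722199 to 56733113, plus strand), was at 1.45 and 1.38 TPM (81 and 71 reads) and was the only one above 1 TPM in both libraries. The alpha-1 receptors Adra1a (1.23 and 0.840 TPM) and Adra1b (1.17 and 0.740 TPM) and the alpha-2 autoreceptor Adra2a (1.14 and 0.880 TPM) passed 1 TPM in replicate 1 only. Adra2c (0.800 and 0.960 TPM) and Adra2b (0.730 and 0.820 TPM) were just below in both. Adra1d, at 0.0900 and 0.0800 TPM from 4 and 3 reads, and Adrb3, the receptor of adipose tissue, with 1 and 2 reads, were far lower. The log2 ratio of Adra2c over Adra2a, -0.18 ± 0.41, did not exceed the spread between the libraries. Cells of blood vessels and microglia, which are known to carry adrenergic receptors, were in the tissue: all 8 endothelial and mural markers reached 1 TPM in both libraries (sums of 156 and 163 TPM), as did all 5 microglial markers (sums of 76.0 and 73.4 TPM). None of 4 sympathetic and neural crest markers did (sums of 0.780 and 1.05 TPM), with Phox2a at 0 reads. The part of these cells in the adrenergic levels was not tested.

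Membership of the group above 1 TPM was thus uncertain for many genes. In all, 15 members had a mean within 1.5 times of 1 TPM, 5 of them at 1 TPM in both libraries, 6 in 1 library and 4 in neither. The lower bound of the authors' interval (its level is not stated) was at 1 TPM or more in both libraries for 12 members. The upper bound was under 1 TPM in both for 19, which leaves 14 between. Among the 14 was Chrna9, which had 0 reads in both libraries and upper bounds of 1.26 and 1.38 TPM. At 0.5 TPM 26 members passed in both libraries, 7 of them adrenergic, and at 2 TPM 8 did, none of them adrenergic. Shares of all genes are not given for these bounds or for 0.5 and 2 TPM. The counts therefore describe only how membership depends on the cut. In the order of all 45 levels, the library values of neighbours were separate at 9 of 44 steps. Chrnb2, Chrna7, Chrna4 and Chrm1 were each separate from the next gene down, whereas the steps among Chrna3, Htr3a, Htr2c and Htr7 were not separate. The place of Chrm1 is still not settled. Its values (4.18 and 4.40 TPM) lay within those of the lower-ranked Htr3a (4.57 and 3.38 TPM) and Htr2c (4.44 and 2.78 TPM).

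**Figure D3:**
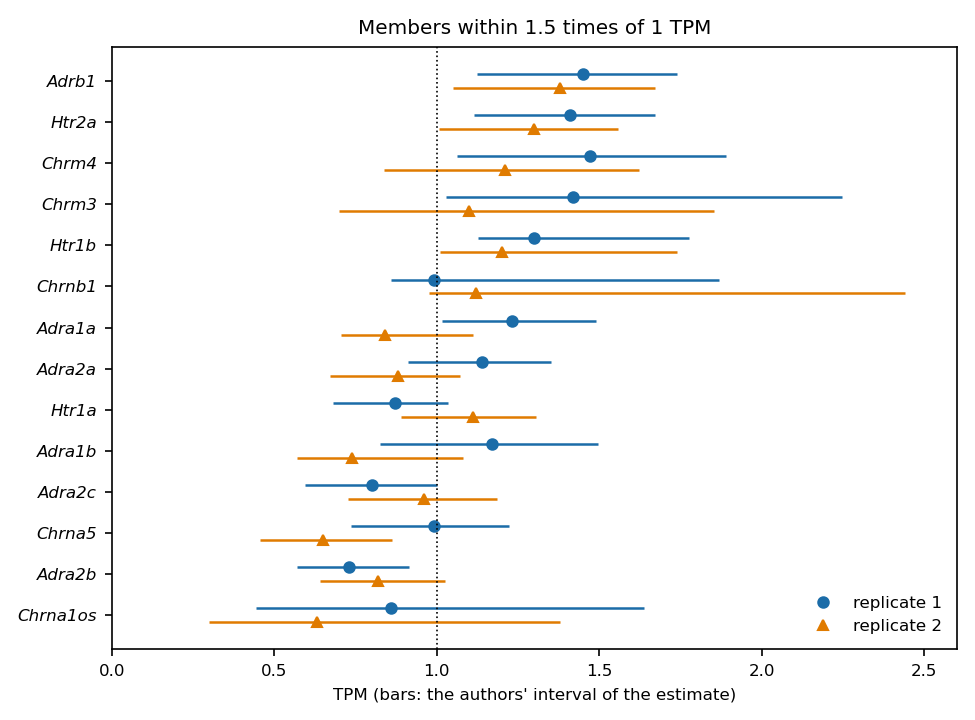
TPM of 14 of the 15 members with a mean within 1.5 times of 1 TPM in replicate 1 (circles) and replicate 2 (triangles); bars are the authors' interval of the estimate and the dotted line marks 1 TPM. Adrb1, Htr2a and Htr1b keep both bars above 1 TPM.

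Among the members at 1 TPM in both libraries, the coding transcripts fell clearly short of the gene total for Chrna4, Htr2c, Htr7, Chrm2 and Chrm3. Of the 14 members at 1 TPM in both libraries, 7 had a single transcript model and the transcript with the highest mean over the libraries was protein-coding in all 14. It was the same in both libraries for 12, the exceptions being Htr2c and Htr7. The short processed transcript Chrna4-204 (712 bases) took 21.6 and 37.6% of the Chrna4 TPM and left 6.17 and 4.47 TPM to the coding Chrna4-201. Coding transcripts of Htr2c summed to 2.14 and 1.64 TPM, while the 648-base processed transcript Htr2c-205, the highest of the gene in replicate 1, was at 1.78 and 0.590 TPM from 22.9 and 6.94 reads, so that the gene totals were further apart than the coding sums. Coding transcripts of Chrm3 summed to 0.770 and 0.590 TPM, below 1 TPM in both libraries, the rest being the 584-base Chrm3-203. For Htr7, the coding Htr7-205 was at 0.540 and 1.46 TPM and the coding Htr7-202 at 1.34 and 0.380 TPM, so which of them leads is not settled by these libraries, although their sum with the other coding model was 1.88 and 1.84 TPM. Transcripts annotated for nonsense-mediated decay, led by Htr7-204 (0.960 and 0.570 TPM), made up the rest of Htr7. Coding transcripts held 91.8 and 85.7% of Chrm2. Below that level, Chrnb1 (88.9 and 74.1%), Adra1a (73.2 and 84.5%), Adra1b (83.8 and 54.1%) and Chrne (13.8 and 0%) also had a coding share under the gene total in both libraries, and Htr1d in replicate 2 (62.3%). The fractional counts show reads divided among transcripts, so that the shares of short models are uncertain.

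**Figure D4:**
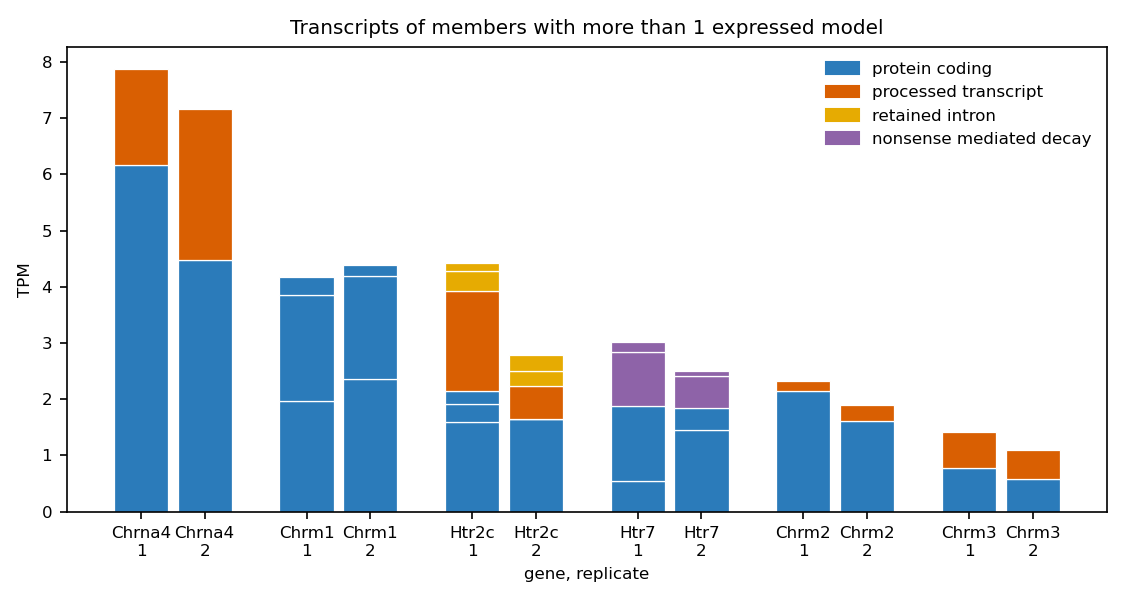
TPM of the transcripts of the 6 members at 1 TPM in both libraries that had more than 1 model above 0, as stacked bars for replicate 1 and replicate 2, coloured by annotated transcript type. Chrm1 is coding throughout, transcripts annotated for decay appear in Htr7, and processed transcripts appear in Chrna4, Htr2c, Chrm2 and Chrm3.

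In the M21 models 6 members share exon bases with a gene on the opposite strand: Chrnb2, Chrm1, Chrm2, Htr1b, Htr2b and Adra1d. Expected counts were whole numbers in both libraries for 41 members, and the 4 exceptions, Chrm1, Chrm2, Htr1b and Htr2b, were all among these 6. Htr1b (141.18 and 119.61 reads) and its antisense gene D430036J16Rik (85.82 and 55.39 reads, at 3.53 and 2.40 TPM) summed to whole numbers, 227 and 175. Chrm2 and its antisense gene 9330158H04Rik likewise summed to 306 and 228, as would follow if reads were divided between the members of each pair. Htr2b and Psmd1, which also overlap, summed to 10389.25 and 9117.52, which are not whole. The separate level of Htr1b, with 852 bases (18.0%) of its exons shared, is therefore uncertain. Chrnb2 shares 1014 bases with Adar (23.1 and 22.6 TPM) in M21, where its model is 6399 bases long against 5384 in the deposited tables, and the counts of both genes were whole.

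Between the pools, members mostly agreed within a factor of 2. Of 32 members with at least 20 reads in all, none was 2-fold or more higher in replicate 1 by TPM and 2 were in replicate 2, against 1.94 and 1.32% of 17600 genes. The 2 were Chrnb4 (16 and 33 reads; CPM ratio of replicate 1 over replicate 2 0.441, exact binomial 95% interval 0.227 to 0.824) and Chrna2 (8 and 17 reads; 0.428, interval 0.160 to 1.05). The habenula list, 3 of whose 4 genes reached 1 TPM in both libraries, summed to 22.4 and 26.1 TPM, with Gpr151 at 0.840 and 1.79 TPM and Pou4f1 at 2.11 and 2.54 TPM, and the thalamus list, with all 4 genes above 1 TPM, to 112 and 150 TPM. Their part in these 2 differences was not tested. Among the higher members, the CPM ratio of replicate 1 over replicate 2 was 1.31 for Chrna4 (interval 1.16 to 1.48) and 1.34 for Htr3a (interval 1.08 to 1.67). It was 1.29 for Chrm2 (interval 1.08 to 1.56) and, the other way, 0.871 for Chrna7 (interval 0.763 to 0.993). In TPM the Chrna4 ratio was 1.10, with an estimated mean transcript length of 3734 and 3117 bases. Over the 14 members at 1 TPM in both libraries the median log2 TPM ratio was 0.12 (SD over genes 0.22). Over all 14895 genes at that level it was 0.015 (SD over genes 0.25), so the difference is smaller than the spread among genes.

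Genes that make or carry the transmitters were uneven. Of the serotonin list 4 of 8 genes reached 1 TPM in both libraries: the vesicular monoamine transporter Slc18a2 (19.5 and 20.1 TPM), the degrading enzymes Maoa (11.95 and 11.31 TPM) and Maob (2.31 and 1.75 TPM), and the decarboxylase Ddc (5.71 and 2.69 TPM). The neuronal serotonin-synthesising enzyme Tph2 was lowest at 0.270 and 0.0900 TPM, and the serotonin transporter Slc6a4 was at 0.490 and 0.360 TPM. In the noradrenaline list Th, shared with dopamine synthesis, was at 4.08 and 3.49 TPM, while Dbh, which makes noradrenaline, was at 0.0200 and 0.0600 TPM and Slc6a2 had 3 and 0 reads. In the acetylcholine list the degrading enzyme Ache was at 9.27 and 6.34 TPM and the vesicular transporter Slc18a3 at 1.11 and 1.31 TPM, while the synthesising enzyme Chat was at 0.0900 TPM in both from 6 and 5 reads and Colq lowest at 0.0200 and 0 TPM. Levels in the tissue are those of messages in cell bodies that were dissected, and do not give the supply by axons from elsewhere.

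Genes that receptors of these classes work with mostly lay higher than the receptors, with list medians of 24.0 TPM for nicotinic assembly and modulation, 75.4 TPM for G protein alpha subunits and 12.2 TPM for receptor kinases and arrestins. All 7 genes of nicotinic receptor assembly and modulation reached 1 TPM in both libraries, led by Ly6h (343 and 325 TPM), the chaperone Tmem35a (102 and 91.7 TPM) and Lypd1 (28.2 and 21.9 TPM), with the assembly factor Ric3 at 24.9 and 23.1 TPM and Lynx1, a brake on nicotinic receptors in the adult cortex, lowest at 1.97 and 1.37 TPM. Of 11 G protein alpha subunits 9 passed 1 TPM in both, led by the Gs subunit Gnas (1036 and 945 TPM), Gnai2 (280 and 277 TPM) and Gnai3 (140 and 137 TPM), with Gna15 lowest at 0.700 and 0.480 TPM. All 7 receptor kinases and arrestins passed, led by Grk6 (36.4 and 36.7 TPM), Arrb2 (31.6 and 31.8 TPM) and Grk2 (15.6 and 17.9 TPM), with Grk4 lowest at 1.79 and 1.88 TPM. Receptors for glutamate and GABA also had higher list medians, though the NMDA list was close to the muscarinic family. The medians were 11.8 TPM over 9 AMPA and kainate, 5.22 TPM over 19 GABA-A and 1.52 TPM over 7 NMDA receptor genes. They were 1.34 TPM over muscarinic, 0.955 TPM over adrenergic, 0.608 TPM over serotonin and 0.200 TPM over nicotinic genes. The nicotinic genes include muscle and hair cell subunits and an antisense RNA. Over the 9 neuronal subunits alone the median was 0.820 TPM. At 1 TPM in both libraries were 9 of 9, 13 of 19 and 4 of 7 of the AMPA and kainate, GABA-A and NMDA genes. Gria2 (183 and 164 TPM) led the AMPA and kainate genes and Grin2b (38.3 and 38.6 TPM) the NMDA genes, and the lowest of the 3 lists were Grik4 (3.65 and 3.13 TPM), Gabrp (0 reads in both, up to 0.0722 and 0.0786 TPM) and Grin2c (0.180 and 0.190 TPM). By coupling, 4 of 9 Gq/11-coupled, 2 of 6 Gs-coupled and 3 of 11 Gi/o-coupled members reached 1 TPM in both libraries, with median levels of 1.03, 0.830 and 0.880 TPM. These are descriptions of lists, which were not tested against each other.

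**Figure D5:**
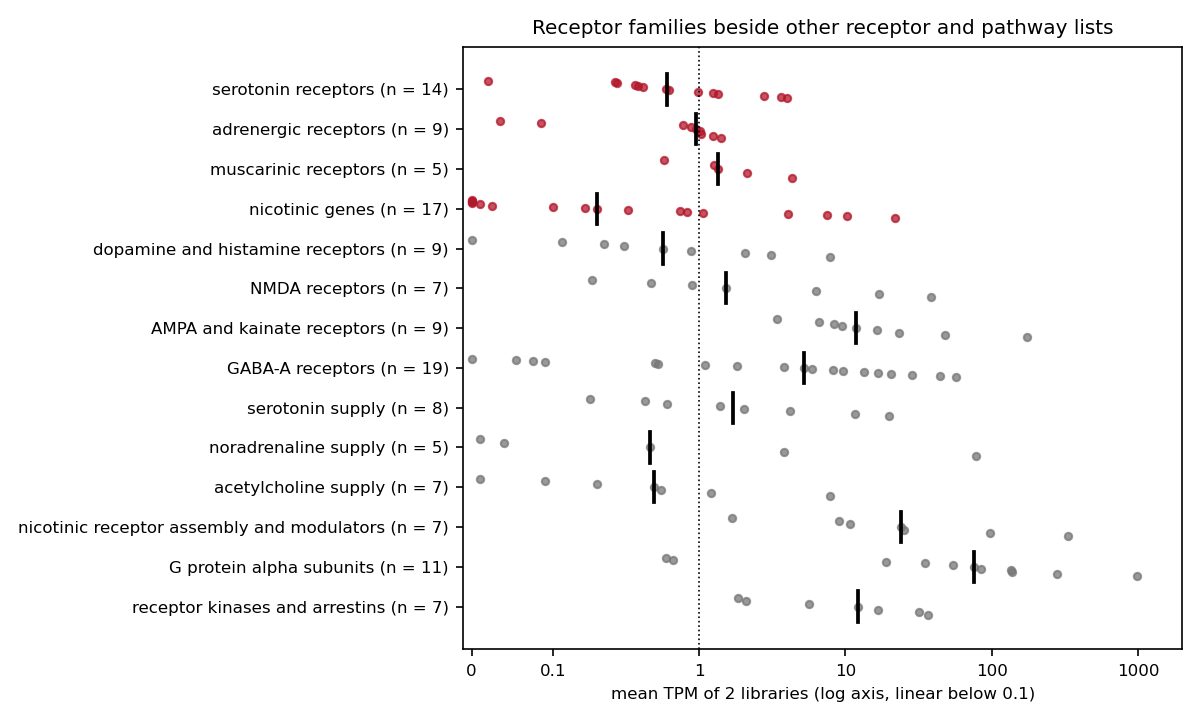
Mean TPM of the libraries for each gene (points) of the 4 receptor families (red) and of other receptor and pathway lists (grey), on a log axis that is linear below 0.1 TPM; black bars are list medians and the dotted line marks 1 TPM. The medians of the 4 families lie between 0.200 and 1.34 TPM, below that of the AMPA and kainate list at 11.8 TPM.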

How the data were processed

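The members and gene lists were chosen with earlier results of these data known. Deposited notes name mm10 and GENCODE M4 as build and annotation; the sources used here name no aligner, quantifier or strand setting. Among the deposited columns, expected counts estimate the reads of each gene and each transcript. The deposited TPM values scale them by effective length over all entries, and posterior mean TPM served as an alternative. The bounds of TPM deposited by the authors were read as a score, since their level is not stated. Deposited percent values state how much of a gene's TPM a transcript holds.

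Identifiers, stripped of version, gave symbols for 42462 of 43346 mouse genes (98.0%). Gene spans, transcript types and exon overlaps come from GENCODE M21 on mm10, over transcripts present in the files; of 94 member transcripts with an M21 model, 75 had the same length in both releases. RefSeq start regions were matched by symbol. Pseudocounts of 0.1 TPM were used for log2 levels. The detection limit for 0 reads is 3 reads per library, converted to TPM. Genes named are the members, by a rule on level and distance from 1 TPM, and the highest and lowest genes of each list, with others chosen after their values were seen. Library scaling used edgeR 4.0.16 and DESeq2 1.42.0 (R 4.3.3) on expected counts rounded to whole numbers; other steps used Python 3.11.15, pandas 2.3.3 and scipy 1.17.1. Level and ratio steps were tested on simulated data. Single values of 1 member and of some genes of the other lists are not reported here.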

Additional observations from a re-analysis of the deposited data

How the results depend on the processing

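The counts of members depend most on the threshold. Against 14 members at 1 TPM in both libraries, 26 passed at 0.5 TPM, 8 at 2 TPM and 25 at 1 CPM. No share of all genes is given for these other cuts. Serotonin receptors numbered 8, 3 and 8 in these settings (5 at 1 TPM), adrenergic receptors 7, 0 and 7 (1 at 1 TPM), muscarinic receptors 1 at 2 TPM (4 at 1 TPM) and nicotinic genes 7 at 0.5 TPM and 6 at 1 CPM (4 at 1 TPM). With 1 library alone, adrenergic receptors at 1 TPM numbered 2 without replicate 1 and 4 without replicate 2. With the authors' lower bound at 1 TPM or more, an alternative chosen after seeing the data, muscarinic receptors numbered 2. The neuronal minus muscle difference of nicotinic medians, 2.20, was 0.73 with a pseudocount of 1 TPM, 2.92 with 0.01 TPM, 1.11 with posterior mean TPM, 3.11 in CPM and 2.88 over protein-coding transcripts, and stayed above 0 in each. The other 35 of 54 settings of these results moved a count by at most 1.5 times or the difference by at most its SD. Of 94 settings of the gene pairs 28 moved a ratio beyond its SD and 2 turned a direction: Chrna4 over Chrna7 was 0.30 in CPM, since Chrna4 is longer, and Chrng over Chrne, resting on 1 to 4 reads each, was 0.059 over protein-coding transcripts. Some of the 94 could hardly move a ratio. Leaving out 1 library is judged by an SD from the same 2 libraries, also for the nicotinic difference. Asking for 10 reads per library left a pair's ratio unchanged by design. Pool ratios under TMM and DESeq2 scaling and a pseudocount of 1 TPM changed beyond their counting interval in 4 of 96 settings. The 4 were Chrna4 and Htr2c under both scalings, which work on counts with no length correction. TMM and DESeq2 gave nearly the same values (log2 ratio 0.383 for Chrna4 under each), so they are not separate checks. Members with few reads have wide intervals that a ratio could hardly leave: Htr1d went from -0.06 to 0.51 under TMM and stayed within its interval. No paired analysis was possible because there is 1 group. Depth limits members below about 10 reads: 10 of the 45 had fewer than 10 reads in all.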

Other observations

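The dopamine and histamine receptors, the other receptors for amine transmitters, reached 1 TPM in both libraries for 3 of 9 genes. The striatal dopamine receptors Drd1 (9.09 and 6.54 TPM) and Drd2 (3.39 and 2.79 TPM) and the histamine receptor Hrh3 (2.21 and 1.93 TPM) were highest, and Hrh4 had 0 reads in both libraries (up to 0.0891 and 0.0970 TPM). Drd1 stood above every serotonin, adrenergic and muscarinic receptor in mean level.

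Tph1, the serotonin-synthesising enzyme known from the pineal gland and the gut, was at 2.38 and 0.380 TPM, from 91 and 13 reads. It was named after its values were seen.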
